A study of Mus musculus with 20 samples.

Results

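Ribosome biogenesis genes and Myc were followed in adipocyte progenitor cells of mice kept in the cold. The 46 genes were taken by symbol from a list drawn up with earlier results of these data in view. They cover RNA polymerase I, the snoRNP proteins, the assembly factors of both ribosomal subunits, multifunctional nucleolar proteins and Myc. All 46 were found among the 27179 genes of the deposited table. All 46 also passed the filter on low values, a mean over the 20 libraries of 10 normalized reads or more, as did 13057 genes in all. The cells were PDGFRb+ cells from the inguinal white fat of male C57BL/6 mice, a subcutaneous depot, isolated by flow cytometry and divided by the surface peptidase DPP4 into DPP4+ and DPP4- cells. The mice were kept at 22 °C or exposed to 6 °C for 24 h, and each of the 4 groups held 5 libraries. All groups share strain, sex, tissue and the PDGFRb+ sort; age and the number of mice behind a library are not given in the sources used here. Nothing in the labels says that the 5 libraries of a group came from separate mice, so p-values measure the spread between these libraries, which may be technical.

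A cell makes ribosomes in the nucleolus. RNA polymerase I transcribes one long precursor from the ribosomal DNA, small nucleolar RNPs modify it, and a large set of assembly factors cuts, folds and packs it into the 40S and 60S subunits. MYC is a transcription factor that pairs with MAX, binds the E-box CACGTG and is known to raise many ribosome biogenesis genes in growing cells.

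The E-box is the reason for showing some start regions here. Windows of 300 bases (250 before to 50 after a gene start, RefSeq, GRCm38.p6) were found for 40 of the 46 genes, and both strands were searched. CACGTG, which reads the same on both strands, was present in 10 of the 40 (25%), against 1189 of 10133 tested genes with a window (11.7%) and 2187 of 27025 genes overall (8.09%). CACGCG and CATGTG, which each differ from it in 1 base and can share bases with a neighbouring match, were present in 35% and 17.5% of the 40, against 20.1% and 9.90% of tested genes. In Nop2 and Imp4 the motif lay before the gene start. In the other 8 (Utp4, Ltv1, Utp20, Pes1, Mybbp1a, Tsr1, Nle1, Wdr43) it lay within the first 50 bases after the start on which the window was set. For Nle1 and Wdr43 that start lies downstream of the first annotated base of the gene. The 5 stretches below are those 2 upstream matches and the 3 downstream matches whose genes had the smallest cold p-value in DPP4+ cells, on the strand of the gene, with the motif in capitals.
Nop2: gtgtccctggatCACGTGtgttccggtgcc
Imp4: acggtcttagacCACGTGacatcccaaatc
Mybbp1a: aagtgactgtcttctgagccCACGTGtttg
Tsr1: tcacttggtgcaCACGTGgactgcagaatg
Ltv1: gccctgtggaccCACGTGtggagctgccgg
They lie at chr6:125131811-125131840 (Nop2, plus strand, motif 60 bases before the start), chr1:34439696-34439725 (Imp4, plus, 121 bases before), chr11:72441347-72441376 (Mybbp1a, plus, 40 bases after), chr11:74898092-74898121 (Tsr1, plus, 24 bases after) and chr10:13193092-13193121 (Ltv1, minus, 28 bases after). A match is a description of letters only, and no window of Myc itself held CACGTG. The median log2 cold difference in DPP4+ cells was 0.33 for the 10 genes with the motif and 0.40 for the 30 without it, so the genes with CACGTG did not have the higher median.

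Depth was 8.49 to 18.8 M reads in a library (M stands for 1e+06), and the column totals of the normalized values were 10.2 to 12.1 M in DPP4+ cells and 15.4 to 17.3 M in DPP4- cells. A scaling to equal totals therefore moves every comparison between the populations. The main counts of genes called are given below under both scalings. Normalized reads of single libraries, group means, summed levels and statements that groups lie apart are on the deposited scale only. Tests of single genes are on that scale unless stated. Dpp4 was at 8546 ± 1158 and 10035 ± 2091 normalized reads in DPP4+ cells (SD, n = 5, 22 °C then 6 °C) and at 67.9 ± 21.6 and 61.3 ± 42.4 in DPP4- cells. All 10 markers of DPP4+ interstitial progenitors, a list that includes the sorted Dpp4 itself, were higher in DPP4+ cells at both temperatures under both scalings. Among all tested genes 38.7% and 38.5% were higher (22 °C, then 6 °C), and 69.7% and 63.1% with column totals set equal. Pdgfrb, the gene of the sort marker, was at 2942 ± 226 and 1505 ± 80.7 in DPP4+ cells and at 4126 ± 333 and 4124 ± 543 in DPP4- cells, and Pdgfra at 11512 ± 419, 5287 ± 462, 9894 ± 641 and 10676 ± 1323 in the same order. They were the 2 of 10 listed progenitor markers that fell with cold in DPP4+ cells, and 0 rose. Of all tested genes 22.6% fell and 23.5% rose. Against DPP4- cells 6 of the 10 were lower and 1 higher at 22 °C, and 7 and 1 at 6 °C. Among all genes 36.2% and 35.7% were lower. With column totals set equal 5 were lower and 4 higher, then 7 and 3, beside 15.6% and 18.8% of all genes lower. Lymphocyte and erythroid markers had 0 tested genes. Summed granulocyte and mast cell markers ranged from 5.98 to 26.96 normalized reads in DPP4+ libraries and from 7.41 to 1466 in DPP4- libraries. In bulk samples, fewer cells of a type and less RNA per cell cannot be told apart.

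Cold raised nearly the whole set in DPP4+ cells. Of the 46 genes, 43 rose, 1 fell (Ubtf) and 2 did not pass the test (Myc and Nop10), in limma with a Benjamini-Hochberg adjusted p under 0.05 over all 13057 genes. Among all tested genes 23.5% rose and 22.6% fell. The median log2 difference of the set was 0.39 (1.31-fold), against 0.01 for all genes, and the middle 50% of the set lay between 0.31 and 0.52. The changes were modest and shared rather than large: 6 genes reached 1.5-fold (Bop1, Nop2, Nhp2, Tsr1, Dkc1 and Bysl). In 37 genes every cold library lay above every 22 °C library, which held for 19.4% of all tested genes. Once totals were set equal, 41 rose and 1 fell, where 18.2% of all genes rose and 25.1% fell.

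Few genes of the set passed the test in DPP4- cells. Bop1 and Imp4 rose and 0 genes fell, where 1.98% of all tested genes rose and 3.23% fell. The median difference was 0.049. At an unadjusted p under 0.05 there were 9 genes, all higher: Imp4, Wdr75, Nhp2, Nle1, Bop1, Nop10, Noc2l, Noc4l and Polr1a. The share of all genes at an unadjusted p was not counted. Such counts, here and for the further lists, therefore have no background and show no rise by themselves. The calls of Bop1 and Imp4 were lost under several settings, and with column totals set equal 9 genes rose and 0 fell (7.01% and 1.74% of all genes), with a median of 0.15.

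The difference between the populations in their response to cold was tested gene by gene as an interaction. It was past the threshold for 29 of 46 genes, in 28 of them with the larger rise in DPP4+ cells and in Ubtf with the opposite sign. Among all genes 16.8% had the larger value in DPP4+ cells and 16.4% the smaller. The set's median difference of effects was 0.38. Setting column totals equal reduced this to 14 genes and a median of 0.23, with 1 gene, Ubtf, of the opposite sign, where 8.64% and 23.4% of all genes were called. The largest differences of effects were those of Tsr1 (0.66, SE 0.121), Nop2 (0.65, SE 0.121), Dkc1 (0.61, SE 0.114) and Bop1 (0.59, SE 0.105).

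**Figure D1:**
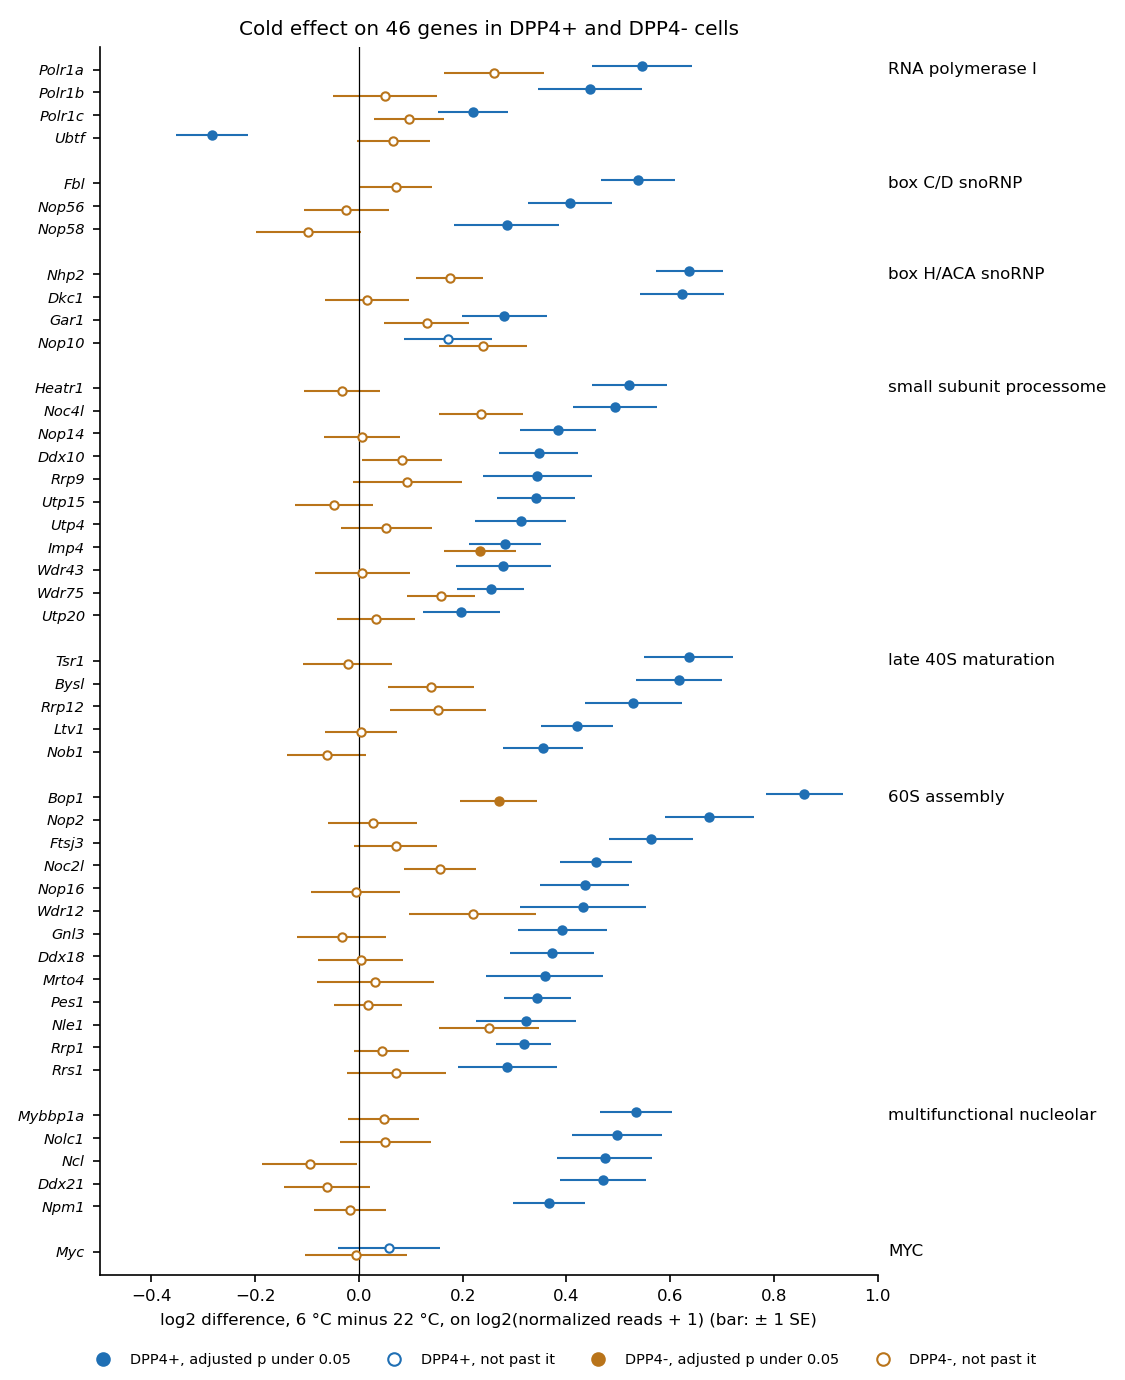
Fitted log2 difference between 6 °C and 22 °C for the 46 genes in DPP4+ cells (blue) and DPP4- cells (brown), grouped by role, with bars of 1 standard error; filled points passed the test. The 43 filled blue points right of 0 lie between 0.20 (Utp20) and 0.86 (Bop1), and Ubtf is the filled blue point left of 0, while 2 brown points are filled.

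At 22 °C the set was lower in DPP4+ than in DPP4- cells on the deposited scale. There were 38 genes lower and 2 higher (Ubtf and Wdr12), where 36.2% of all tested genes were lower and 38.7% higher, and the median log2 difference was -0.67 against 0.030 for all genes. In 39 genes every DPP4+ library lay below every DPP4- library, which held for 31.4% of all genes. With column totals set equal the picture divided: 17 genes were higher and 16 lower, with a median of -0.057. On that scale all genes were shifted to a median of 0.64, with 69.7% higher and 15.6% lower. The median of the set lay below that of all genes by about the same distance under both scalings. That follows from the scaling itself, since 1 factor per library moves all its genes alike. Whether a given member is higher or lower in DPP4+ cells depends on the scaling, and 16 of the genes turned their sign with a call under at least 1 scaling.

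In the cold the gap was smaller. On the deposited scale 23 genes were lower and 6 higher (Bop1, Bysl, Nhp2, Polr1a, Rrp1 and Wdr12), with a median of -0.22, where 35.7% of all genes were lower and 38.5% higher. With column totals set equal 26 were higher and 10 lower, with a median of 0.25 against 0.50 for all genes, of which 63.1% were higher and 18.8% lower. The comparisons at 22 °C and in the cold share no library with each other, but each shares its libraries with the cold effects above.

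**Figure D2:**
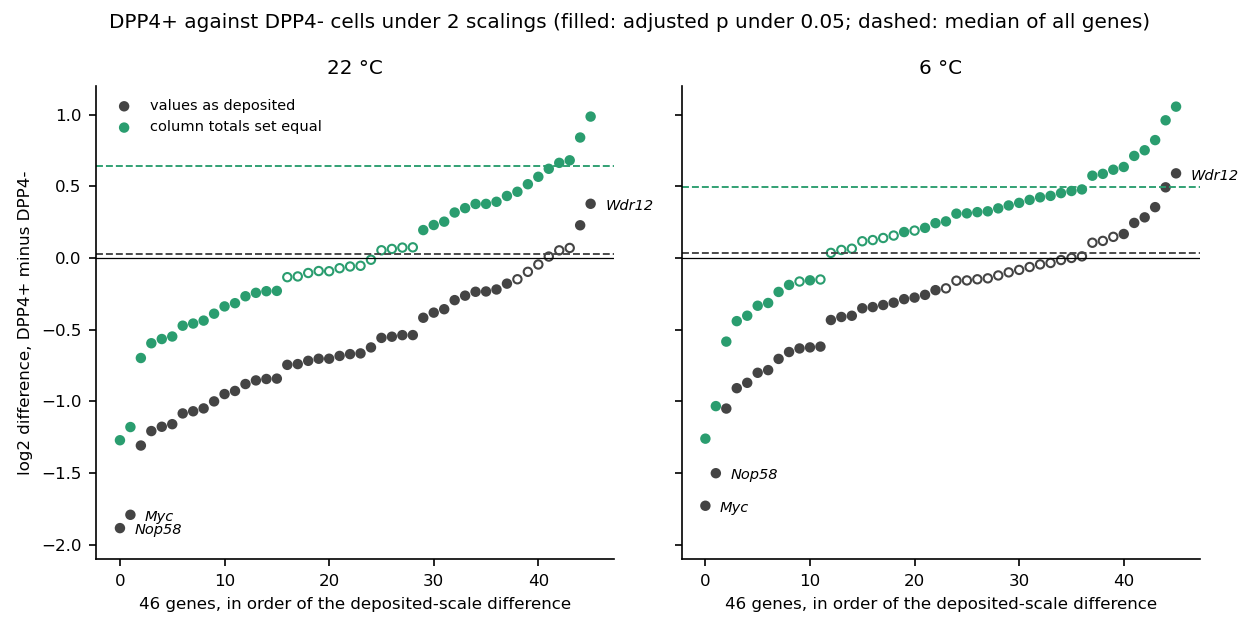
Log2 difference between DPP4+ and DPP4- cells for each of the 46 genes at 22 °C (left) and 6 °C (right), ordered by the deposited-scale value; grey points are values as deposited, green points have column totals set equal, filled points passed the test and dashed lines are medians of all tested genes. Nop58 and Myc lie lowest in both panels under both scalings, and the green points sit above the grey ones for every gene.

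The level of the set in single libraries was summarised as the median over the 46 genes of each gene's log2 deviation from its mean over the 20 libraries. It was -0.56 to -0.34 in DPP4+ cells at 22 °C and -0.16 to 0.054 in DPP4+ cells at 6 °C, so these groups did not overlap. In DPP4- cells it was 0.12 to 0.25 at 22 °C and 0.012 to 0.34 at 6 °C, and the groups overlapped. With column totals set equal the 4 ranges were -0.27 to -0.043, 0.00088 to 0.36, -0.19 to -0.10 and -0.18 to 0.12 in the same order. The share of all normalized reads taken by the set was 0.353 ± 0.0169% and 0.447 ± 0.0389% in DPP4+ cells (22 °C, then 6 °C) and 0.412 ± 0.0125% and 0.444 ± 0.0459% in DPP4- cells (SD, n = 5). Replicate 5 was the lowest cold library of each population in this share, at 0.385% and 0.370%. These libraries, with replicate 1 of the DPP4- group at 22 °C, also had the lowest of the sample weights that limma estimated over all genes. Without all 3, a choice made after the weights were seen, 43 genes rose and 1 fell in DPP4+ cells, 3 rose in DPP4- cells, and 29 and 1 were called for the difference of effects.

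**Figure D3:**
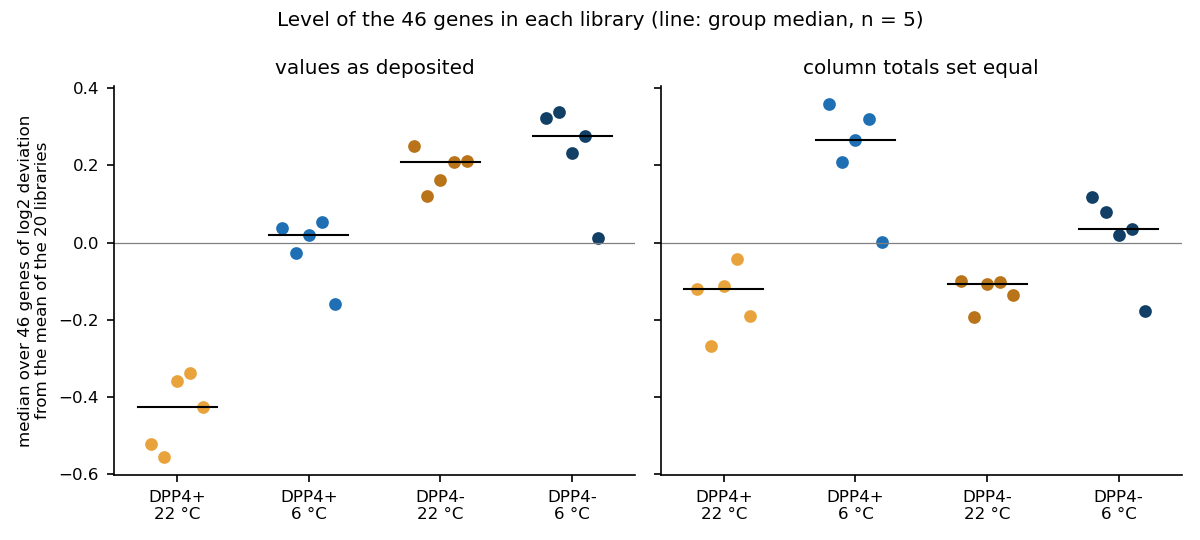
Each point is 1 library: the median over the 46 genes of the log2 deviation from the gene's mean over 20 libraries, as deposited (left) and with column totals set equal (right); lines are group medians, n = 5. On both scales the DPP4+ libraries at 6 °C lie above those at 22 °C, and replicate 5, the rightmost point, is lowest in both cold groups.

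Of 4 genes of RNA polymerase I, which makes the ribosomal RNA precursor, 3 rose with cold in DPP4+ cells and 1 fell. With column totals set equal 2 rose and 1 fell. With so few genes, no direction is read for the role. Here and for the roles below, 23.5% of all tested genes rose and 22.6% fell. With column totals set equal the shares were 18.2% and 25.1%. Polr1a, the largest catalytic subunit (gene ID 20019, chr6:71909053-71979435), was at 537, 517, 539, 497 and 536 normalized reads in the 5 DPP4+ libraries at 22 °C and at 929.7, 773, 768, 821 and 583 at 6 °C. Every cold library lay above every 22 °C library, and the rise was 1.48-fold (log2 0.55, SE 0.0966, limma adjusted p = 6.45e-05). DPP4- cells had 413, 479, 481, 605 and 543 at 22 °C and 569.8, 585, 648, 627 and 570.4 at 6 °C, with an overlap of the groups (adjusted p = 0.117). Polr1b, the second-largest subunit (gene ID 20017, chr2:129100970-129128060), was at 286, 276, 392, 336 and 327 in DPP4+ cells at 22 °C and at 441, 423, 481, 469.8 and 379.9 at 6 °C. The groups overlapped, and the rise was 1.36-fold (adjusted p = 0.000777). In DPP4- cells Polr1b was at 486, 458, 519, 596 and 508 and then at 627, 577, 497, 533 and 435, without a change past the threshold (adjusted p = 0.817). Polr1c, a subunit that RNA polymerase III also uses, rose 1.16-fold in DPP4+ cells; this call was lost with column totals set equal (log2 0.17, adjusted p = 0.0623).

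Ubtf, the HMG-box factor that binds ribosomal DNA and recruits the polymerase, went the other way. It was at 1408, 1335, 1345, 1373 and 1365 in DPP4+ cells at 22 °C and at 1035, 1105, 1185, 1078 and 1214 at 6 °C, so that every cold library was below every 22 °C library. It fell by 0.28 on the log2 scale (SE 0.0699, adjusted p = 0.00185). DPP4- libraries had 1291, 1147, 1135, 1174 and 1087 and then 1141, 1081, 1327, 1135 and 1454, which overlapped (adjusted p = 0.632), and the 2 responses differed (adjusted p = 0.00835).

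The box C/D snoRNP proteins, which guide and carry out ribose methylation of ribosomal RNA, all rose in DPP4+ cells. Fibrillarin, Fbl (gene ID 14113, chr7:28168893-28179269), is the methyltransferase of the complex. It was at 446, 468, 512, 576 and 515 at 22 °C and at 732, 722, 735, 799 and 662 at 6 °C, with the groups apart and a 1.45-fold rise (log2 0.54, SE 0.0709, adjusted p = 1.20e-06). DPP4- libraries were at 787, 694, 807, 749 and 837 and at 865, 833, 821, 834 and 717. The cold DPP4+ level thus reached the DPP4- range, and at 6 °C the populations were no longer past the threshold for Fbl on the deposited scale (log2 -0.16, adjusted p = 0.0506; 0.31 with column totals set equal, adjusted p = 0.000437). Nop56, a scaffold protein (gene ID 67134, chr2:130274367-130279313), was at 835, 854, 1029.8, 994 and 963 and rose to 1314, 1187, 1259, 1277 and 1149, 1.32-fold with the groups apart (adjusted p = 0.000233). In DPP4- cells it stood at 2059, 1929, 1868, 1859 and 1935 and 2293, 1962, 1837, 1971 and 1509, above all DPP4+ libraries at 22 °C. Nop58, its partner, rose 1.22-fold in DPP4+ cells, and stood 3.69-fold lower there than in DPP4- cells at 22 °C and 2.87-fold lower at 6 °C. Its lower level held with column totals set equal (log2 -1.27 and -1.03).

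The box H/ACA proteins, which make pseudouridines in ribosomal RNA and are also parts of telomerase, rose in 3 of 4 cases. Dkc1, dyskerin, the pseudouridine synthase (gene ID 245474, chrX:75095854-75109776), was at 341, 322, 349, 366 and 325 in DPP4+ cells at 22 °C and at 546, 526, 532, 572 and 454 at 6 °C. The groups were apart, and the rise was 1.54-fold (log2 0.62, SE 0.0806, adjusted p = 9.29e-07). DPP4- cells had 655, 626, 586, 728 and 706 and 749, 746, 622, 674 and 556, and the response differed between the populations by 0.61 on the log2 scale (adjusted p = 0.000233). Nhp2, an RNA-binding core protein (gene ID 52530, chr11:51619773-51623718), was at 341, 351, 334, 397 and 348 and then at 593, 546, 506, 572 and 539, a 1.56-fold rise (adjusted p = 1.95e-08). In DPP4- cells it was at 402, 417, 476, 436 and 441 and 471, 491, 514, 531 and 449, with overlap (log2 0.18, adjusted p = 0.114). Gar1 rose 1.22-fold in DPP4+ cells, and Nop10, the smallest core protein, was 1.13-fold of its 22 °C level without passing the test (adjusted p = 0.105).

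All 11 factors of the small subunit processome, the particle that forms on the nascent precursor and releases the 40S part, rose in DPP4+ cells, with a median log2 difference of 0.34. Heatr1, a large scaffold of the complex that joins the precursor first (gene ID 217995, chr13:12395375-12438893), was at 589, 632, 755, 687 and 719.8 at 22 °C and at 989, 975, 998, 1012 and 869.8 at 6 °C. The groups were apart (1.43-fold, log2 0.52, SE 0.0730, adjusted p = 2.86e-06). In DPP4- cells it was at 1149, 1109, 1252, 1300.3 and 1238 and 1223, 1220.2, 1176, 1303 and 1003 (adjusted p = 0.837), and the difference of responses was 0.55 (adjusted p = 0.000212). Noc4l, which works with Nop14 (gene ID 100608, chr5:110648419-110653382), was at 192, 184, 213, 224 and 199.9 and at 310.5, 268, 298, 298 and 254 in DPP4+ cells. It rose 1.41-fold with the groups apart (adjusted p = 2.46e-05), yet all cold DPP4+ libraries were below all DPP4- values of 475, 529.9, 530.3, 494 and 481 and 606, 646, 611, 636 and 472. Nop14 rose 1.30-fold, the helicase Ddx10 1.27-fold, and the U3 snoRNP proteins Rrp9 and Imp4 1.26-fold and 1.22-fold. The WD-repeat and UTP proteins Utp15, Utp4, Wdr43, Wdr75 and Utp20 rose 1.26, 1.24, 1.21, 1.19 and 1.15-fold. Utp20 had the smallest rise of the 43 and lost its call with column totals set equal (log2 0.15, adjusted p = 0.147). For 3 of the 11 genes (Heatr1, Nop14, Utp15) the response was larger in DPP4+ cells, beside 16.8% of all tested genes. With column totals set equal this held for 1 of the 11, near the 8.64% of all genes. Imp4 rose in both (1.18-fold in DPP4- cells, adjusted p = 0.0478), and its difference of effects was 0.048 (SE 0.0973).

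The late 40S factors, which accompany the pre-40S particle to the cytoplasm and finish it there, all rose in DPP4+ cells. All 5 had the larger response in DPP4+ cells, beside 16.8% of all tested genes. With column totals set equal 3 of 5 did, beside 8.64%. Their median log2 difference of 0.53 was the highest of the role groups. Tsr1, a GTPase-like factor of the late pre-40S particle (gene ID 104662, chr11:74898080-74909340), was at 435, 417, 543, 472 and 424 at 22 °C and at 795, 721, 744, 695 and 605 at 6 °C. It rose 1.55-fold with the groups apart (log2 0.64, SE 0.0856, adjusted p = 1.64e-06), while DPP4- cells had 1122, 830.2, 935, 961 and 962 and 997, 965, 906, 1033 and 829. Of its exon bases, 32.3% also belong to Srr on the other strand, so its reads are uncertain. Bysl, bystin (gene ID 53414, chr17:47599331-47611492), was at 282, 295, 334, 311 and 299 and at 509.7, 478, 471, 497 and 387, a 1.54-fold rise (adjusted p = 1.50e-06). Its DPP4- values were 365, 349.8, 358, 347 and 368 and 439.7, 444, 337, 414 and 345 (adjusted p = 0.353), and 9.37% of its exon bases overlap Ccnd3. Rrp12 rose 1.44-fold, Ltv1 1.34-fold and Nob1, the nuclease that makes the mature end of the small ribosomal RNA, 1.28-fold.

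The 13 factors of 60S assembly all rose in DPP4+ cells, from 1.21-fold (Rrs1) to 1.82-fold (Bop1), with a median log2 difference of 0.39. Bop1 (gene ID 12181, chr15:76452988-76477249) forms the PeBoW complex with Pes1 and Wdr12, which is needed to process the precursor of the large subunit RNAs. It was at 394, 334, 387, 372 and 345 in DPP4+ cells at 22 °C and at 743, 680.5, 667, 689 and 556 at 6 °C, the largest rise of the 46 genes (log2 0.86, SE 0.0740, adjusted p = 1.26e-09). DPP4- cells went from 374, 389, 397, 413 and 383 to 492, 406, 499, 463 and 504, 1.21-fold with an overlap of the groups (adjusted p = 0.0334). The response was larger in DPP4+ cells (log2 0.59, adjusted p = 0.000125). Its partners Pes1 and Wdr12 rose 1.27-fold and 1.36-fold in DPP4+ cells. Nop2, an rRNA cytosine methyltransferase (gene ID 110109, chr6:125131883-125144753), was at 571, 540.3, 598, 645 and 639.8 and then at 1081, 951, 944, 1059 and 774, a rise of 60.5% with the groups apart (adjusted p = 6.81e-07). The DPP4- values were 991, 911, 974, 959 and 967 and 1066, 1087, 949, 1037 and 786, and at 6 °C the populations overlapped (log2 -0.034, adjusted p = 0.727; 0.43 with column totals set equal). The rRNA methyltransferase Ftsj3 rose 1.48-fold, Noc2l 1.37-fold, Nop16 1.36-fold, nucleostemin (Gnl3) 1.31-fold and the helicase Ddx18 1.29-fold. Mrto4, Nle1 and Rrp1 rose 1.28, 1.25 and 1.25-fold. The response was larger in DPP4+ cells for 9 of the 13, beside 16.8% of all tested genes. The difference was not past the threshold for Rrs1, Wdr12, Nle1 and Mrto4. With column totals set equal the response was larger for 4 of the 13, beside 8.64% of all genes. Of the exon bases of Noc2l, 20.9% also belong to Samd11 on the other strand, so its reads are uncertain.

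The multifunctional nucleolar proteins, abundant chaperones and helicases that also act outside ribosome assembly, rose in 5 of 5 cases in DPP4+ cells. All 5 responses were larger than in DPP4- cells, beside 16.8% of all tested genes. With column totals set equal 3 of 5 were, beside 8.64%. Mybbp1a (gene ID 18432, chr11:72441327-72451770), a nucleolar protein that binds MYB, was at 1732, 1641, 1877, 1724 and 1809.6 at 22 °C and at 2799.6, 2582, 2589, 2593 and 2186 at 6 °C (1.45-fold, log2 0.53, SE 0.0686, adjusted p = 8.09e-07). DPP4- libraries had 2509, 2597, 2379, 2637 and 2731 and 2727, 2729.5, 2591, 2970.2 and 2302. The RNA helicase Ddx21 (gene ID 56200, chr10:62580247-62602298) was at 2012, 2046, 2529, 2409 and 2439 and at 3208, 3145, 3284, 3278 and 2882 in DPP4+ cells, with the groups apart (1.38-fold, adjusted p = 5.42e-05). In DPP4- cells it was at 4139, 4034, 4028, 3933 and 4310.4 and 4305, 4224, 3941, 4228 and 3042, where replicate 5 at 6 °C was the lowest library. Nucleolin (Ncl) rose 1.39-fold, Nolc1 1.41-fold and nucleophosmin (Npm1) 1.29-fold. Npm1, Nop56, Fbl, Ddx18, Ddx21, Mrto4, Pes1 and Wdr12 have near-identical copies elsewhere in the genome (at least 95% identity over at least 200 bases), so their counts are uncertain where reads could be shared.

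**Figure D4:**
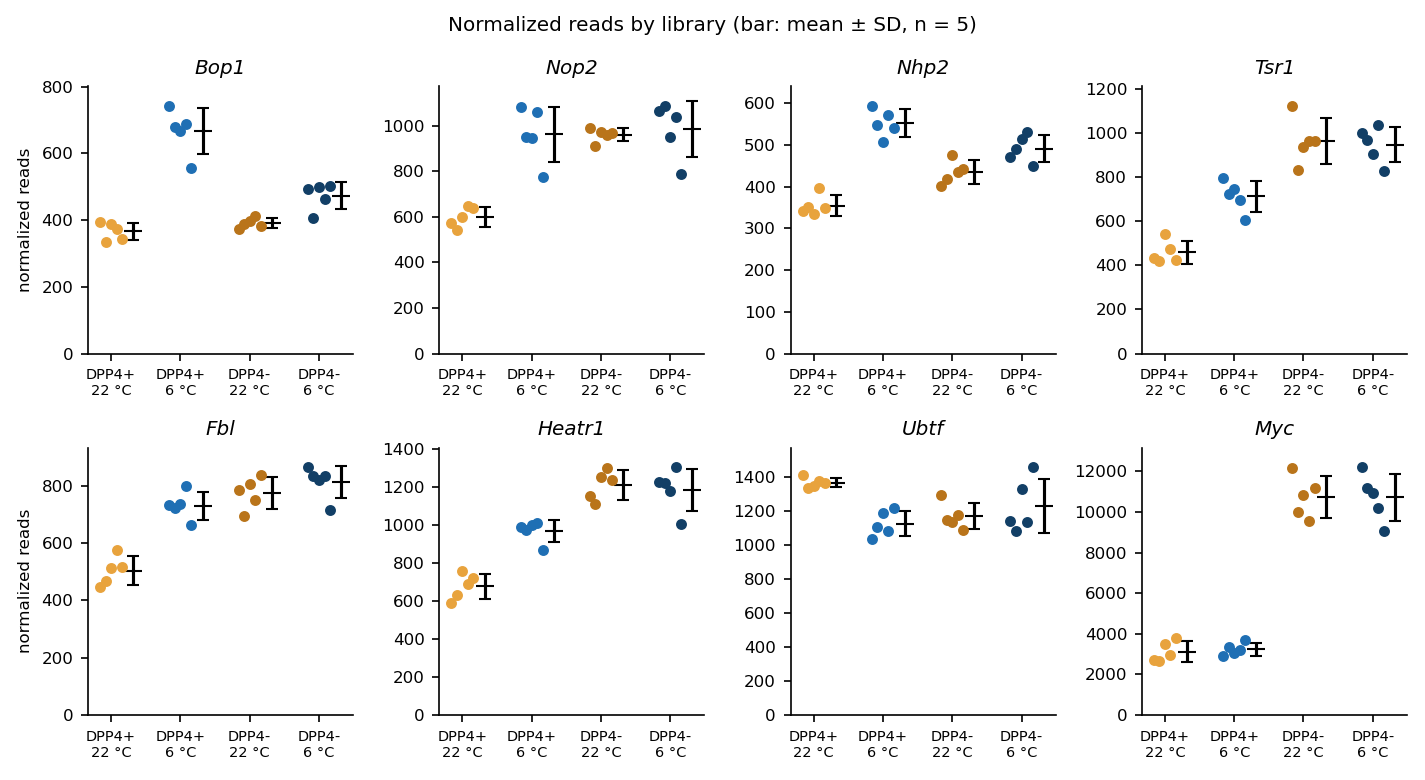
Normalized reads of 8 genes in each library (points, replicates 1 to 5 from left to right) with the mean and SD of each group, n = 5, on axes that start at 0. In Bop1, Nop2, Nhp2, Tsr1, Fbl and Heatr1 the DPP4+ cold libraries all lie above those at 22 °C, in Ubtf they all lie below, and Myc is higher in all DPP4- libraries while its temperatures overlap.

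Myc did not move with the genes above. It (gene ID 17869, chr15:61985341-61990361) was at 2699, 2662, 3504, 2950.2 and 3810.5 normalized reads in DPP4+ cells at 22 °C and at 2889, 3330.2, 3051, 3203 and 3674 at 6 °C. In DPP4- cells the values were 12172, 9982, 10830.1, 9567 and 11181 and 12205, 11189.5, 10935, 10196 and 9069.7. The 2 temperatures overlapped in each population, and every DPP4- library was far above every DPP4+ library. The cold difference was 0.057 (SE 0.0987, adjusted p = 0.664) in DPP4+ cells and -0.0055 (SE 0.0987, adjusted p = 0.983) in DPP4- cells on the log2 scale, and these differed by 0.063 (SE 0.140, adjusted p = 0.764). Group means were 3125 ± 509.9 and 3229 ± 299 in DPP4+ cells and 10746 ± 1025 and 10719 ± 1169 in DPP4- cells (SD, n = 5). In that order of levels the 2 groups of 1 population did not differ beyond their spread. The level in DPP4+ cells was 3.44-fold lower at 22 °C (log2 -1.79, adjusted p = 6.66e-14) and 3.32-fold lower at 6 °C (log2 -1.73, adjusted p = 1.12e-13). It was still lower once totals were set equal, by log2 -1.18 and -1.26. DPP4+ cells, where 43 of the other genes rose with cold, had the lower Myc RNA level at both temperatures. The part of Myc in that rise was not tested, and MYC protein was not measured here.

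Per kilobase of the longest coding transcript, Myc was the highest of the 46 genes in DPP4- cells (4596 normalized reads per kilobase at 22 °C and 4585 at 6 °C) and the second, after Npm1, in DPP4+ cells (1337 and 1381). Npm1 was at 2089.6 and 2697 in DPP4+ cells and at 2459 and 2442 in DPP4- cells. Gnl3 and Ncl followed in all 4 groups. Wdr12 was lowest throughout, between 12.3 and 21.8 normalized reads per kilobase, and it also had the fewest reads, at least 447 summed over the 5 libraries of a group. This order depends on the length used, which was 10012 bases for Wdr12, 8202 for Ncl, 2338 for Myc and 1947 for Gnl3. A shorter transcript would give a higher value per kilobase. Which transcripts the cells used was not tested, so the places of single genes are uncertain.

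Immediate early genes, which respond within minutes to serum, stress and tissue dissociation, and to which Myc is often counted, were also lower in DPP4+ cells. Of 23, 20 were lower and 2 higher at 22 °C, where 36.2% of all tested genes were lower and 38.7% higher. At 6 °C 20 were lower and 3 higher, beside 35.7% and 38.5% of all genes. With column totals set equal 19 were lower and 3 higher at each temperature. On that scale 15.6% of all genes were lower and 69.7% higher at 22 °C, and 18.8% and 63.1% at 6 °C. Their summed level was 79726 to 103250.0 normalized reads in DPP4+ libraries at 22 °C and 290804 to 392633 in DPP4- libraries. With cold, 4 rose and 0 fell in DPP4+ cells, where 23.5% of all tested genes rose and 22.6% fell, and with column totals set equal 3 rose and 1 fell. Those that rose included Ier3 (from 833 ± 169.5 to 1852 ± 116), Egr2 (from 99.5 ± 16.4 to 141 ± 8.47) and Fosl1 (from 776 ± 115 to 951 ± 72.3). In DPP4- cells 0 changed by limma or edgeR and 1 rose by DESeq2, with 3 at an unadjusted limma p under 0.05, all higher. The part of this program in the Myc difference was not tested.

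Other members of the MYC network were divided in DPP4+ cells. Of 12 tested, 5 rose and 3 fell with cold, beside the 23.5% and 22.6% of all genes. Max, the partner that MYC needs to bind DNA, rose from 616 ± 32.3 to 683 ± 31.5 (log2 0.15, adjusted p = 0.0266). Mxd1 and Mga, which also pair with MAX, rose by log2 0.67 (adjusted p = 2.63e-06) and 0.36 (adjusted p = 0.000342). Mxd4, a repressor of the same family, fell by 0.51 on the log2 scale (adjusted p = 1.57e-05). In DPP4- cells Mga fell by 0.33 (adjusted p = 0.0108), and its responses in the 2 populations differed (adjusted p = 1.93e-05). Mycn and Mycl, the relatives of Myc, had means of 2.30 to 6.33 and 0.67 to 5.41 normalized reads and were not tested.

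Known MYC targets outside ribosome assembly followed the pattern of the set. Of 20, 15 rose and 3 fell in DPP4+ cells (median log2 0.43), beside 23.5% and 22.6% of all tested genes. In DPP4- cells 1 rose, beside 1.98% of all genes. The response was larger in DPP4+ cells for 10 and smaller for 1, beside 16.8% and 16.4%. With column totals set equal 14 rose and 3 fell in DPP4+ cells, beside 18.2% and 25.1% of all genes. On that scale 4 rose in DPP4- cells (7.01% of all genes). The response was then larger in DPP4+ cells for 7 and smaller for 2 (8.64% and 23.4% of all genes). Srm, which makes spermidine, went from 736 ± 55.6 to 1102 ± 94.6 in DPP4+ cells (adjusted p = 2.70e-08) and was at 1156 ± 42.8 and 1207 ± 23.8 in DPP4- cells. The lactate dehydrogenase gene Ldha went from 3702 ± 105 to 5935 ± 754 (adjusted p = 9.93e-08). The cap-binding translation factor Eif4e went from 1597 ± 229 to 2664 ± 143 (adjusted p = 1.11e-07), and in DPP4- cells it was at 1824 ± 103 and 1716 ± 193.

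The rise extended to assembly factors outside the 46 genes. Of 40 other small subunit factors 31 rose and 0 fell in DPP4+ cells (median log2 0.30), and of 46 other large subunit factors 36 rose and 0 fell (median 0.37), beside the 23.5% and 22.6% of all genes. In DPP4- cells 0 of either list changed by limma, edgeR or DESeq2, and 6 of each list were at an unadjusted limma p under 0.05, all higher. With column totals set equal 3 of 40 and 5 of 46 rose there, beside 7.01% of all genes. The difference of responses was called for 18 and 22 of them, all larger in DPP4+ cells, beside 16.8% of all genes. With column totals set equal it was called for 7 and 10, beside 8.64%. Rrp1b, a relative of Rrp1, went from 294 ± 26.1 to 601 ± 90.7 (log2 1.02, adjusted p = 9.61e-08). Gnl2, a nucleolar GTPase, went from 655 ± 47.1 to 1054 ± 108 (adjusted p = 1.12e-07) and the helicase Ddx54 from 804 ± 45.8 to 1117 ± 66.5 (adjusted p = 2.08e-07). On the small subunit side, the cytoplasmic kinase Riok3 went from 913 ± 46.2 to 1413 ± 74.6 (adjusted p = 2.01e-09), Wdr46 from 239.8 ± 11.2 to 398 ± 48.7 (adjusted p = 2.11e-07) and Nsun4 from 126 to 242 (adjusted p = 6.81e-07). Nsun4 is known for its place in mitochondrial ribosome assembly, not in the nucleolus.

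Of 12 other RNA polymerase I factors 6 rose and 1 fell in DPP4+ cells (median log2 0.18), beside 23.5% and 22.6% of all tested genes. With column totals set equal 4 rose and 1 fell (median 0.13), beside 18.2% and 25.1%. Rrn3, which makes the polymerase competent to start, went from 628 ± 28.3 to 852 ± 80.8 (adjusted p = 2.89e-06) and differed from its response in DPP4- cells (adjusted p = 0.000503). The subunit Polr1e went from 78.7 ± 7.83 to 138 ± 15.1 (adjusted p = 2.22e-05), and Taf1d, of the promoter complex, from 313 ± 33.1 to 428 ± 43.0 (adjusted p = 0.000133).

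RNA polymerase III, which makes the 5S ribosomal RNA and tRNAs, had 7 of 21 genes higher and 3 lower in DPP4+ cells (median 0.12), beside the 23.5% and 22.6% of all genes, and 5 higher and 3 lower with column totals set equal. Polr3d rose by log2 0.47 and Polr3e by 0.39, while Polr3gl fell by 0.50. Of 13 exosome and rRNA nuclease genes 5 rose and 0 fell (median 0.17; 2 and 1 with column totals set equal), among them Exosc10 (0.22), Dis3 (0.29) and Exosc2 (0.31). The structural ribosomal proteins gave 28 of 78 higher and 0 lower in DPP4+ cells (median 0.16). In DPP4- cells 1 of 78 was higher, beside 1.98% of all genes. The response of 1 of 78 differed between the populations and was larger in DPP4+ cells, beside 16.8% of all genes. After totals were set equal 14 of 78 rose in DPP4+ cells, near the 18.2% of all genes. In DPP4- cells 24 of 78 rose, where 7.01% of all genes did, so that the order of the 2 populations turned. Rps2 went from 3018 ± 122 to 3634 ± 147, Rps13 from 1714 ± 139 to 2073 ± 125 and Rpl29 from 373 ± 26.1 to 445 ± 34.9. Many ribosomal protein genes have processed copies, so their counts are uncertain.

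**Figure D5:**
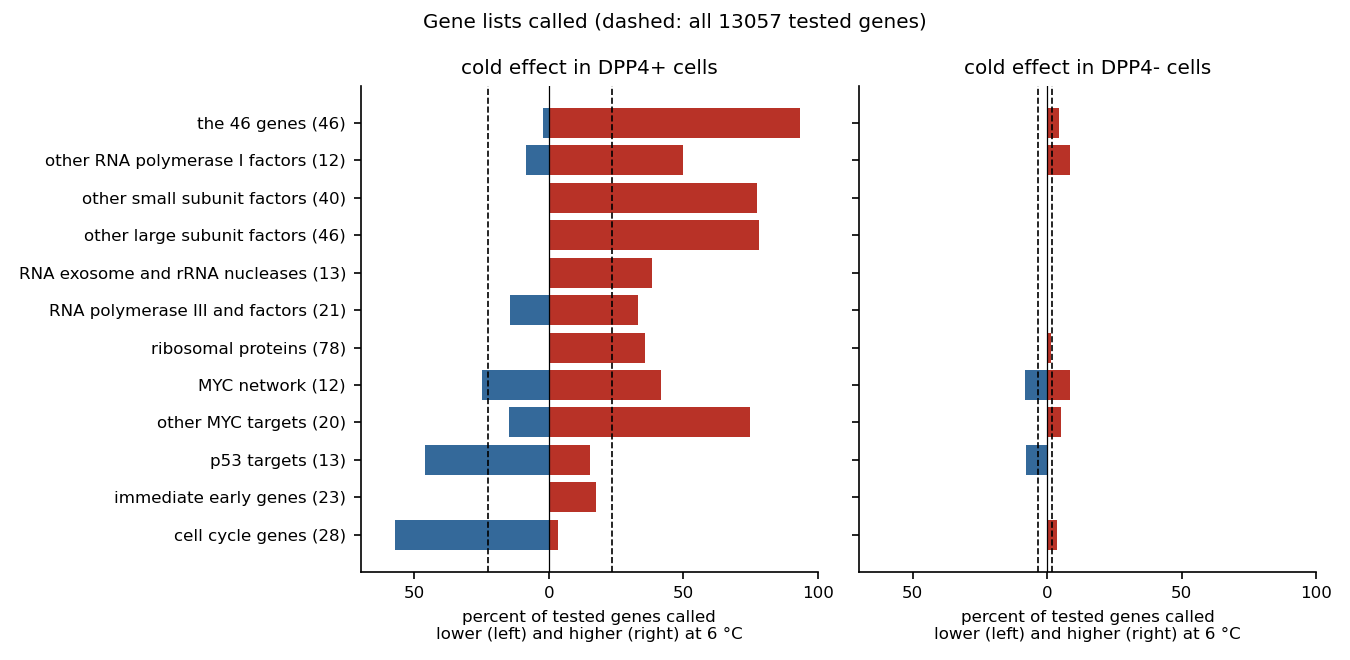
Percent of tested genes called higher (right) and lower (left) at 6 °C in DPP4+ cells and in DPP4- cells, for the 46 genes and for each further list, with the number tested in brackets and dashed lines for all tested genes. In DPP4+ cells the 46 genes and the 2 lists of other subunit factors reach farthest to the right and the cell cycle genes farthest to the left, and in DPP4- cells all bars are short.

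Cell cycle and p53 target genes went the other way in the same libraries. Of 28 cell cycle genes 16 fell and 1 rose with cold in DPP4+ cells (median log2 -0.53), where 22.6% of all tested genes fell and 23.5% rose. In DPP4- cells 1 rose, beside 1.98% of all genes. Ccnb2, the mitotic cyclin, fell from 211 ± 21.8 to 87.5 ± 11.8 (adjusted p = 1.31e-06), and Mcm6, of the replicative helicase, from 477 ± 43.0 to 309 ± 31.5 (adjusted p = 6.27e-06). Pcna, the replication clamp, was the gene that rose, from 634 ± 25.2 to 904 ± 91.7 (adjusted p = 1.13e-05). The summed level of the list was 10494 to 13447 normalized reads in DPP4+ libraries at 22 °C, 6463 to 10825 at 6 °C and 2105 to 2624 in all DPP4- libraries. Of 13 p53 targets 6 fell and 2 rose in DPP4+ cells, beside the same shares of all genes. Trp53inp1 fell from 584 ± 48.4 to 302 ± 33.6 (adjusted p = 1.02e-08), Phlda3 from 599 ± 64.0 to 279.5 ± 42.0 (adjusted p = 1.92e-06) and Ccng1 from 1565 ± 101 to 1189 ± 63.3 (adjusted p = 1.41e-05). Markers of fat cell stages and of other cells were counted in the same way, beside those shares. In DPP4+ cells 5 of 10 pericyte and smooth muscle markers fell and 2 rose, with a summed level of 9353 to 12122 normalized reads at 22 °C and 4259 to 7127 at 6 °C. Of 11 committed preadipocyte markers 5 fell and 3 rose, while their sum, 33208 to 35699 and then 37463 to 45428, was higher in every cold library. Of 4 tested Schwann cell markers 2 fell and 0 rose, with low sums of 22.5 to 37.6 and 8.62 to 20.47. The 8 tested endothelial markers gave 2 rises and 0 falls, about the share of all genes that rose, and their sums overlapped (2597 to 3310 and 2814 to 4294). Of 5 tested mature adipocyte markers 1 rose in DPP4+ cells, with sums of 576 to 833 and 339 to 617, and 3 rose in DPP4- cells, with sums of 21.6 to 122 and 117 to 319. The part of these changes in the rise of the ribosome biogenesis genes was not tested.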

How the data were processed

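RNA-seq was available for 20 libraries in 4 groups of 5. Per the submitters' processing notes, the authors used DESeq2 1.6.3, featureCounts 1.4.6, HISAT2 2.0.1 and Trim Galore 0.4.1, with GRCm38 and mm10 named as builds and no order given. The annotation and the strand setting are not given in the sources used here, so overlapping genes cannot be separated. The values are a signal of the authors' making: gene counts of a library divided by 1 factor. Whole reads were recovered by dividing each column by its step; 100% of the quotients came out whole (the farthest was 0.000237 read from a whole number, with 0.1 allowed), 8.49 to 18.8 M reads in a library. Genes without a symbol (958) held 0.0610 to 0.0824% of the reads and stayed out of the lists.

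Genes with a mean of at least 10 (13057) were fitted on log2(value + 1) with limma 3.58.1 in R 4.3.3, with 4 group means, 16 residual degrees of freedom, a variance trend and robust moderation. The tests of the 5 contrasts were two-sided, with Benjamini-Hochberg adjustment inside each contrast and a threshold of 0.05. Log2 differences are fitted values on this scale, which understates changes of low genes, and folds are ratios of group means. The fit was also run on simulated counts with planted changes. These had the same relative spread for all genes and no differences in quality between libraries. The simulation therefore does not show how the fit performs on these libraries. Per-kilobase levels use the longest coding transcript of GENCODE vM21. Positions and start windows are those of RefSeq on GRCm38.p6. The alternatives were other scalings, pseudocounts, filters and moderation, a replicate block, sample weights, leaving out libraries, and count tests on the whole reads, with DESeq2 1.42.0 and with edgeR 4.0.16 (quasi-likelihood). Over all tested genes, edgeR on the recovered reads called 3323 rises and 3210 falls with cold in DPP4+ cells, 240 and 359 in DPP4- cells, 2148 and 2178 for the difference of effects, and 5015 and 4797 (22 °C) and 4948 and 4763 (6 °C) between the populations. Correlations of each gene with Myc are not given, since the libraries form 4 separate groups of 5.

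The 46 genes and all gene lists were chosen with earlier results of these data known. All 46 are named. Values of every library are given for Myc, for Ubtf, added after its values were seen, and for the 2 genes of each role with the smallest p-value of the cold effect in DPP4+ cells. Of each further list the 3 genes with the smallest p-value are named, with Dpp4, Pdgfrb, Pdgfra, Max, Mycn and Mycl added.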

Additional observations from a re-analysis of the deposited data

Results flagged for a closer look

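Some single libraries stood far from the other 4 of their group, by the gap to the nearest library relative to the whole range (Dixon's critical value 0.71 for 5 libraries). There were 8 such values among the 184 groups of 5 examined (46 genes in 4 groups), and chance gives about 1 in 20. Nop58 was at 6430.4 normalized reads in replicate 1 of DPP4- cells at 22 °C, where the others ranged from 5084 to 5411. Nop58 was at 3583 normalized reads in replicate 5 of DPP4- cells at 6 °C, where the others ranged from 5383 to 5895. Nhp2 was at 397 normalized reads in replicate 4 of DPP4+ cells at 22 °C, where the others ranged from 334 to 351. Utp15 was at 418 normalized reads in replicate 3 of DPP4+ cells at 22 °C, where the others ranged from 342 to 360.2. Heatr1 was at 869.8 normalized reads in replicate 5 of DPP4+ cells at 6 °C, where the others ranged from 975 to 1012. Noc4l was at 472 normalized reads in replicate 5 of DPP4- cells at 6 °C, where the others ranged from 606 to 646. Npm1 was at 3669.9 normalized reads in replicate 4 of DPP4+ cells at 22 °C, where the others ranged from 3288 to 3393. Ddx21 was at 3042 normalized reads in replicate 5 of DPP4- cells at 6 °C, where the others ranged from 3941 to 4305. Of the 8 values, 3 were low ones in replicate 5 of DPP4- cells at 6 °C.

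The cold effect differed between DPP4+ and DPP4- cells for 29 genes, by the limma test of the difference of effects (adjusted p under 0.05). It was negative for Ubtf (log2 -0.35). The other 28 had the larger value in DPP4+ cells, in log2: Rrp1 0.27, Noc2l 0.30, Pes1 0.33, Ddx18 0.37, Rrp12 0.38, Nop14 0.38, Nop58 0.38, Npm1 0.38, Utp15 0.39, Polr1b 0.39, Ltv1 0.42, Nob1 0.42, Gnl3 0.42, Nop56 0.43, Nop16 0.44, Nolc1 0.45, Nhp2 0.46, Fbl 0.47, Bysl 0.48, Mybbp1a 0.49, Ftsj3 0.49, Ddx21 0.53, Heatr1 0.55, Ncl 0.57, Bop1 0.59, Dkc1 0.61, Nop2 0.65 and Tsr1 0.66.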

How the results depend on the processing

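The rise in DPP4+ cells held under every setting tried: 39 to 44 genes rose and 1 fell when each library was left out in turn, with a median of 0.37 to 0.42. Leaving out each library gave 0 to 3 rises and 0 falls in DPP4- cells (median 0.013 to 0.10), 25 to 31 and 1 for the difference of effects (0.30 to 0.41), 2 higher and 37 to 39 lower between the populations at 22 °C (-0.69 to -0.63), and 5 to 8 higher and 21 to 28 lower at 6 °C (-0.28 to -0.18). The 2 rises in DPP4- cells were 1 with quantile normalization, without trend or robust moderation, with a replicate block, with edgeR and with DESeq2, and 0 without a filter, with only the groups compared and with sample weights. The replicate block moved no other count of calls by over 1.5 times; the labels do not say whether same-numbered libraries share mice, and they were not treated as pairs. Same-numbered libraries of different groups correlated at -0.23 to 0.27 in their deviations (8 of 30 over 0.1), those of the same temperature at 0.0166 to 0.156, and 14 of 20 libraries correlated best with their own number. The scaling mattered most. With column totals set equal, 9 genes rose in DPP4- cells (median 0.15), 14 had the larger response in DPP4+ cells (median 0.23), 17 were higher and 16 lower between the populations at 22 °C (median -0.057), and 26 were higher and 10 lower at 6 °C, where the median turned to 0.25. Quantile normalization gave a median of -0.55 at 22 °C. The fitted difference between DPP4+ and DPP4- cells turned from negative to positive for these genes with column totals set equal (log2): at 22 °C Imp4 0.46, Wdr75 0.43, Ddx18 0.25, Ltv1 0.054, Utp20 0.57, Pes1 0.39, Npm1 0.38, Nhp2 0.32, Mybbp1a 0.064, Ftsj3 0.075, Bop1 0.51, Polr1c 0.23, Bysl 0.38, Mrto4 0.073, Utp4 0.20 and Ddx10 0.35; at 6 °C Imp4 0.37, Wdr75 0.38, Ncl 0.32, Ltv1 0.33, Ddx21 0.16, Mybbp1a 0.41, Tsr1 0.057, Ubtf 0.35, Ftsj3 0.42, Heatr1 0.18, Nop16 0.24, Utp15 0.12, Polr1c 0.21, Nolc1 0.036, Nop10 0.45, Polr1b 0.19, Mrto4 0.26, Noc2l 0.065, Nop2 0.43, Fbl 0.31, Utp4 0.31, Nob1 0.14 and Dkc1 0.13. On that scale the positive values of Ltv1, Mybbp1a, Ftsj3 and Mrto4 at 22 °C and of Nolc1, Tsr1, Noc2l, Dkc1, Utp15, Nob1, Polr1b and Ddx21 at 6 °C did not pass the test. Quantile normalization turned Npm1 at 22 °C (0.22) and Ncl at 6 °C (0.25). The cause of these dependences on scaling was not tested. Setting totals equal moved the median of all genes by up to 0.61 at 22 °C. Counts of 447 or more reads per group stand behind each of the 46 genes, so depth does not limit their detection, while Mycn and Mycl were too low to test.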
